A study of Mus musculus with 4 samples.

Results

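Memory-like Ly6c2 Nkg7 CD8 T cells are the cells with T cell receptor chains, Cd8b1 and memory-associated transcripts among sorted mesenteric lymph node cells. They were 513 of the 11861 cells kept, 376 of 4762 in the hCD2- library and 137 of 7099 in the hCD2+ library. The members were chosen by reading their own counts. A cell had to carry a single hashtag, at least 500 genes, at most 10% mitochondrial UMIs and at least 3000 UMIs (molecules counted per gene). It had to hold at least 2 UMIs of Cd3e, Cd3d and Cd3g together, at least 1 of Cd8b1 and under 2000 UMIs of Cd74 per 1000000 UMIs. At least 2 of the 5 memory genes Ly6c2, Nkg7, Cd163l1, Samd3 and Ifngas1 had to be detected, and fewer than 2 of Foxp3, Ctla4 and Izumo1r.

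The cells came from 15-day-old untreated mice of the genotype Gm38411-iCre-hCD2 R26 tdTomato. In them a cassette at Gm38411 encodes the recombinase iCre and the surface reporter human CD2 (hCD2), and cells that recombined at any earlier time carry tdTomato. The sort took cells that were CD3-, B220-, CD11c+, MHC-II+ and tdTomato+, and split them into hCD2- and hCD2+. Both groups share the genotype, the tissue and the age, and 12 mice, each under its own hashtag, were pooled into 1 library per fraction. Fraction and library therefore cannot be told apart. Equal hashtags in both libraries were taken as the same mouse, which the labels do not state for each library, and counts of mice between libraries rest on it. The sort was meant to leave out CD3+ cells and the labels call all cells dendritic cells, so that a CD8 T cell in these libraries goes against its sort label.

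CD8 T cells recognise peptide on MHC class I through the T cell receptor with the help of CD8. Memory-phenotype CD8 T cells carry receptors for IL-2, IL-15 and IL-18 and can form before any infection, in the young animal, while naive CD8 T cells keep Lef1, Ccr7 and other genes of recirculation. In mice, Ly6C marks many memory-phenotype CD8 T cells, Nkg7 is a granule membrane protein of cytotoxic lymphocytes, and Samd3 and the phosphodiesterase gene Pde2a are transcribed in NK and CD8 T cells.

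The stretches just before the starts of Nkg7 and Samd3 are shown because both genes chose the members and both carry the same letters there. These are the last 30 bases before the RefSeq start (GRCm38, plus strand), with the T-box motif AGGTGTGA or its reverse complement in capitals.
Nkg7, chr7:43437108-43437137: agggagggggtagggaAGGTGTGAgaagaa
Samd3, chr10:26229677-26229706: cacttcctgatgattTCACACCTttctgtt
The annotated GENCODE gene of Nkg7 begins upstream of this stretch, at position 43437073 of chromosome 7, and that of Samd3 just after it, at 26229707 of chromosome 10. The motif begins 14 bases before the RefSeq start in Nkg7, and 15 bases before it, on the minus strand, in Samd3.

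This motif was picked for display after the matches had been seen. In all, 5 motifs were searched on both strands in the 250 bases before the start: AGGTGTGA and the AGGTGTG inside it (T-box), TGTGGTT (Runx), and TTTGAT and the CTTTGAT that contains it (TCF/LEF). AGGTGTGA was in 2 of the 5 memory genes of the gate and in 1.12% of all 32851 windows. A list of 24 genes was also scanned, of which 19 had a window. AGGTGTGA was in 3 of these: Nkg7, Samd3 and Trat1, a gene that was lower in members. AGGTGTG was in 3 of the 5 genes (Ifngas1 too) and in 5.10% of windows. TGTGGTT was in Ly6c2 alone and in 4.40% of windows. TTTGAT and CTTTGAT were in 0 of the 5 and in 10.6% and 3.21% of windows. Among genes that the test between memory-like and naive-like cells called, AGGTGTGA was no more frequent in those that were higher: 2 of 462 with a window (0.433%), against 4 of 415 that were lower (0.964%) and 37 of 4360 tested (0.849%).

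Ly6c2 has a close copy, Ly6c1, next to it on chromosome 15, and the stretches before both starts are shown side by side. The 250 bases before each start were aligned (RefSeq, GRCm38, minus strand; chr15:75111972-75112221 and chr15:75048838-75049087), and capitals mark bases that differ or have no partner.
Ly6c2: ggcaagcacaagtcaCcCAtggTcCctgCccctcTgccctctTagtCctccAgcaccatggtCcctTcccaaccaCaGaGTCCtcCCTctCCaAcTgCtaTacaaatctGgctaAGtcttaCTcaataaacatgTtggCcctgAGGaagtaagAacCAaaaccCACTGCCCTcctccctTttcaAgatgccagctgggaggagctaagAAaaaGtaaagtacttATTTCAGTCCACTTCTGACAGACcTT
Ly6c1: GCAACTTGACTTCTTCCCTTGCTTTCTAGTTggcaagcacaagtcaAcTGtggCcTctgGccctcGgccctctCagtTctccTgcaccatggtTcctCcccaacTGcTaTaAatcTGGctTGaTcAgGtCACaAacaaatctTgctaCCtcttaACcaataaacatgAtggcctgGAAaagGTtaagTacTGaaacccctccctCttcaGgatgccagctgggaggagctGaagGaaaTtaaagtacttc
The windows shared 171 identical bases (68.4%). They lie before the starts, so that they do not show whether reads of the copies could be mixed up. The transcripts were not compared. Ly6c1 was nearly absent where Ly6c2 was high: in members of the hCD2- library it had 6 UMIs in all and was at 0 in 8 of 12 mice, against 4314 UMIs of Ly6c2.

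Members held a median of 20531 UMIs in hCD2- and 17956 in hCD2+, with 12 to 52 and 2 to 33 cells per mouse. Of 14404 called cells, 20 barcodes occurred in both libraries, and 0 of those were members. Transcripts of the sorting reporter were at or near 0 in the members: hCD2 had 0 UMIs in hCD2- and 1 UMI in hCD2+ members, and iCre and Gm38411 had 0 in both. The nominal dendritic cell markers (9 genes with Cd74 and H2-Aa among them) summed to a median of 351 UMIs per 1000000 UMIs (CPM) in hCD2- members, with a range of 275 to 1645, against 16357 CPM in droplets of 10 to 100 UMIs.

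The label was checked on the 5 marker genes, of which 4 were in the gate, so that these levels describe the choice and are not tested. Ly6c2 (chromosome 15, 75108158 to 75111970) had a lowest, median and highest level of 378, 458 and 718 CPM over the 12 mice of the hCD2- library. Naive-like CD8 T cells, the 242 cells with the same gates but fewer than 2 memory genes, had 0, 0 and 40.6 CPM. For Nkg7 (chromosome 7, 43437073 to 43438249) the members' values were 313, 468 and 665 CPM and the naive-like ones 179, 264 and 377 CPM. Samd3 (chromosome 10, 26229707 to 26272172) stood at 76.2, 104 and 170 CPM in members and was at 0 in every naive-like arm. Cd8b1 had means of 628 ± 87.7 and 659 ± 115 CPM in members and naive-like cells (SD, n = 12 mice each). Ly6c2 and Samd3 separated the arms of members and naive-like cells with no overlap, and Nkg7 and Cd8b1 did not.

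**Figure D1:**
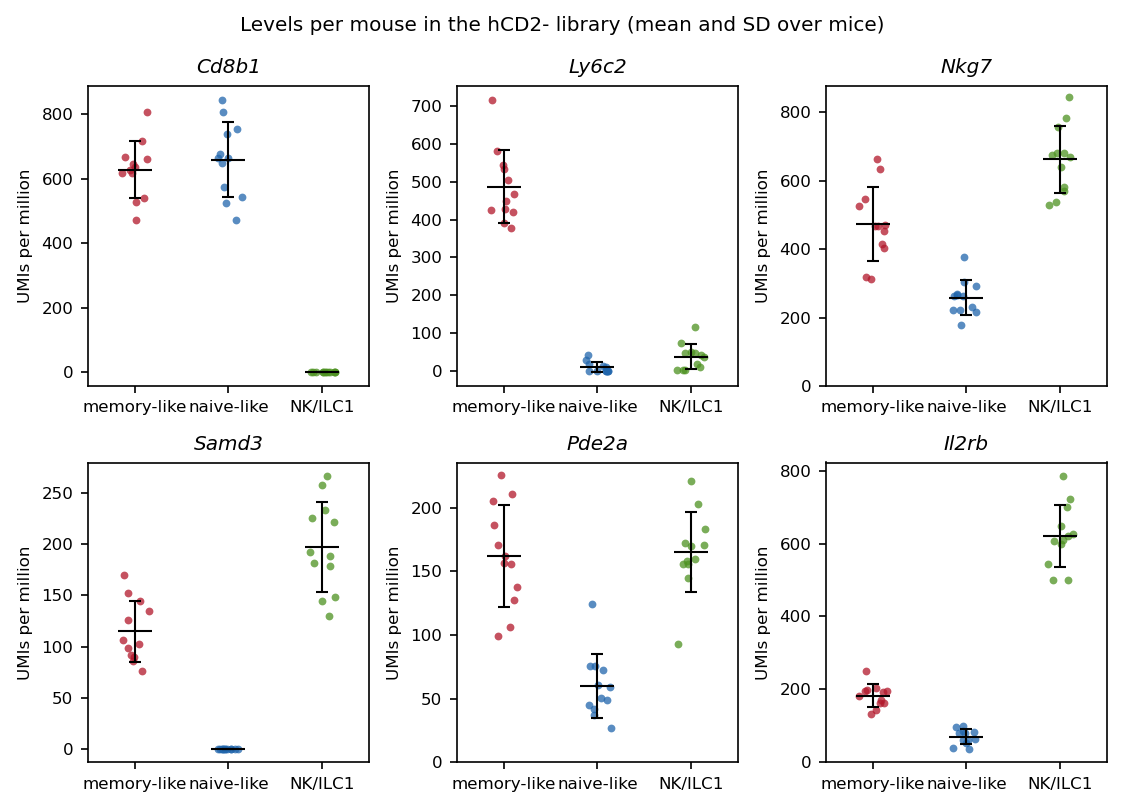
Levels in CPM (y axis) of Cd8b1, Ly6c2, Nkg7, Samd3, Pde2a and Il2rb in each mouse of the hCD2- library, for memory-like and naive-like CD8 T cells and NK or ILC1-like cells (12 points each; line and bars are mean and SD). Ly6c2 in members lay between 378 and 718, above all naive-like arms (up to 40.6) and NK arms (up to 116).

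Pde2a, a cyclic nucleotide phosphodiesterase and the only marker the gate did not read, was tested. It stood at 162 ± 40.3 CPM in members and 60.0 ± 25.5 CPM in naive-like cells (SD, n = 12 mice each). The difference was 1.54 ± 0.17 on the log2 scale (SE; higher in 12 of 12 mice, edgeR adjusted p = 1.00e-07).

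Among themselves, members differed in which memory genes they held. Nkg7 was detected in 98.8% of the 513 cells, Ly6c2 in 86.4%, Samd3 in 59.5%, Ifngas1 in 52.4% and Cd163l1 in 34.1%. The commonest combination was Ly6c2 with Nkg7 alone (108 cells), followed by all but Cd163l1 (103) and all 5 genes (89). Cells just inside the threshold, with 2 memory genes, were 165. Cells just outside, with 1 gene, were 204, and 38 had none. Their median UMIs rose with the number of genes detected, from 14457 with none to 21342 with all 5, so that detection and depth moved together. With each cell thinned to 3000 UMIs before the gates, 234 cells were members in place of 513. At the other thresholds, 12 members had a single Cd8b1 UMI and 280 cells failed only Cd8b1. A further 45 cells failed only on Foxp3, Ctla4 and Izumo1r, and 24 only on Cd74.

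When 1 memory gene at a time was left out of the gate and the other 4 chose the cells, the gene left out could be described in cells it had not chosen, with no test. Ly6c2 then stood at 576 ± 149 CPM in members and 95.8 ± 49.95 CPM in naive-like cells (SD, n = 12), higher in 12 of 12 mice. Samd3 was at 114 ± 30.1 and 18.2 ± 26.4 CPM, and Cd163l1 at 80.6 ± 41.3 and 6.85 ± 6.56 CPM, each higher in 12 of 12. Ifngas1, a long noncoding RNA beside Ifng, was at 94.1 ± 29.4 and 7.03 ± 6.75 CPM in the same comparison. Nkg7 differed least, at 505 ± 107 and 342 ± 122 CPM, higher in 11 of 12.

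The question for the fractions was how common these cells were in each. Memory-like CD8 T cells made up 7.86% ± 2.97 of kept hCD2- cells and 2.02% ± 1.65 of kept hCD2+ cells (SD, n = 12 mice each). By mouse the lowest, median and highest share was 3.30%, 7.92% and 14.1% in hCD2- and 0.418%, 1.64% and 5.95% in hCD2+. The ranges overlapped, and the share was higher in hCD2- in 11 of 12 mice (difference 5.84 percentage points, two-sided permutation p = 4.00e-05, adjusted p = 8.00e-05 over the 2 shares tested). The sort removes CD3+ cells to an unknown degree in each fraction, so these are shares of what the sort let through. The lower share in hCD2+ was not particular to members. Naive-like CD8 T cells were 192 of 4762 kept hCD2- cells, against 50 of 7099 in hCD2+. CD4 T cells fell from 242 to 67 and Treg-like T cells from 163 to 89. In the NK or ILC1-like class 188 cells stood against 64. The shares of these other classes were not tested. Within CD8 T cells the share of memory-like cells was 65.4% ± 11.1 in hCD2- and 69.0% ± 19.3 in hCD2+ (n = 12 each; permutation p = 0.576, adjusted p = 0.576). By mouse it ranged from 45.7% to 81.5% and from 37.5% to 92.3%, and was higher in hCD2- in 4 of 12 mice. The median depth was lower in hCD2+ CD8 T cells. With cells thinned to 3000 UMIs, the memory-like share of CD8 T cells was 38.0% in hCD2- and 42.9% in hCD2+ (n = 12 and 10), and the difference in the share of kept cells was 2.60 percentage points (3.56% and 0.956%, permutation p = 4.00e-05, higher in 12 of 12 mice).

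**Figure D2:**
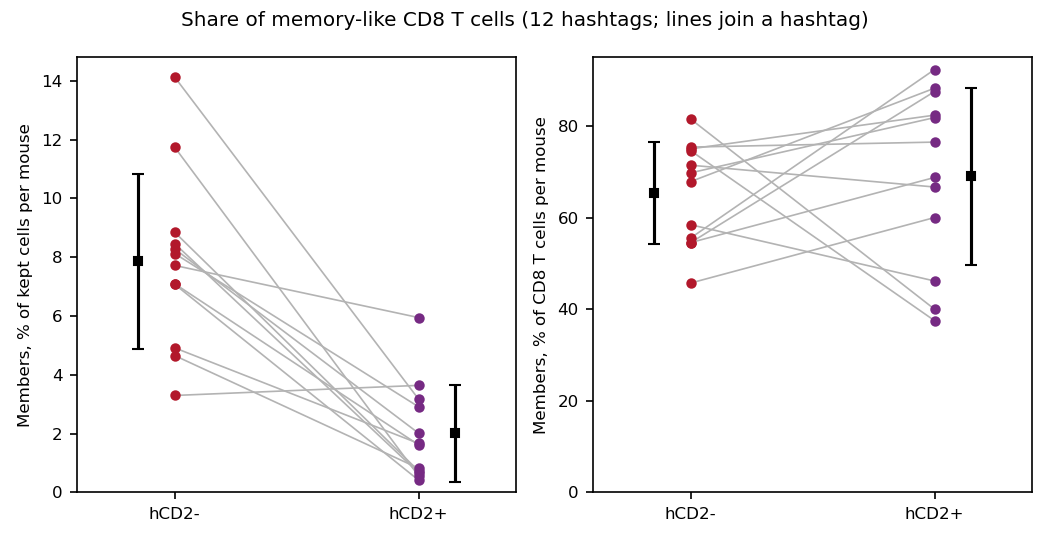
Memory-like CD8 T cells per mouse as a percentage (y axes, from 0) of all kept cells (left) and of CD8 T cells (right) in the hCD2- and hCD2+ libraries. Points are 12 mice, grey lines join a mouse, and squares with bars are mean and SD: on the left 7.86% and 2.02%, on the right 65.4% and 69.0%.

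The main comparison set members against naive-like CD8 T cells of the same 12 mice in the hCD2- library (376 and 192 cells). Members were higher in Il2rb and in 4 of 6 tested cytotoxic and effector genes, and lower in 11 of 15 naive T cell genes. Of 5400 genes tested, 1092 were called at an adjusted p under 0.05 (20.2%), 565 of them higher (10.5%) and 527 lower (9.76%) in members. The 13 genes of the gates were given no test. The other genes were not read by the gate, but they were measured in the same cells, and genes that vary with the memory genes are favoured by it. The filter on low counts keeps a gene on the arms of a single group. Il18r1, Il18rap, Ctla2a, Eomes and Cd44 passed it through members' arms, and Ccr9 and Sox4 through naive-like arms. The differences of these genes are descriptions, also where a list count includes them. Other genes may have passed it in the same way. The median difference over all tested genes was -0.0025 on the log2 scale.

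Cytokine receptor genes gave 5 of 11 tested members higher and 3 lower, with a list median of 0.26. Il18r1 and Il18rap, described below without a test, are among the 5. Il2rb, the chain that the IL-2 and IL-15 receptors share, had a lowest, median and highest level of 130, 187 and 250 CPM in members and 35.3, 69.7 and 99.3 CPM in naive-like cells. The arms did not overlap, which held for 0.796% of all genes tested (log2 1.43 ± 0.13, 12 of 12 mice, adjusted p = 2.95e-09). Il18r1, the ligand-binding chain of the IL-18 receptor, ran from 68.3 over 121 to 223 CPM in members and from 0 over 16.4 to 40.6 CPM in naive-like cells, again without overlap (2.79 ± 0.26). Il18rap, its signalling partner, stood at 72.9 ± 24.9 against 5.44 ± 5.47 CPM (SD, n = 12; 3.74 ± 0.31, 12 of 12 mice). Il6ra, the IL-6 receptor, fell by 0.70 and Il27ra, the IL-27 receptor, fell by 0.47 on the log2 scale. Il2rg, the shared gamma chain, fell by 0.23 (edgeR adjusted p = 0.0437, and 0.0714 with mouse as a block). Its call was also lost without the filter, with both libraries summed and after thinning (-0.018). The same held with Ly6c2, Cd163l1 or Samd3 left out of the gate. Il7r, the IL-7 receptor and a gene of both naive and memory cells, was at 490 ± 89.1 and 457 ± 163 CPM and was not called (adjusted p = 0.621).

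Of the 17 NK receptor genes, only Klrd1 and Klrc1, which encode CD94 and its partner NKG2A, passed the filter on low counts. Klrc1 passed it only through members, so that its rise is a description and no count of the list is given. Klrd1 ranged from 179 to 364 CPM in members and from 72.4 to 137 CPM in naive-like cells, with no overlap (1.31 ± 0.12, 12 of 12 mice, adjusted p = 2.95e-09). Klrc1 stood at 39.9, 92.8 and 288 CPM as lowest, median and highest in members, and was at 0 UMIs in all naive-like arms. Set against the floor of 3 counts over the naive-like group, it was at least 117-fold higher. NK or ILC1 cell markers moved with this result. Without Eomes, which CD8 memory cells also express, the other 6 markers of the list (Ncr1, Klrb1c, Klre1, Klra8, Fcer1g and Tyrobp) summed to a median of 76.7 CPM in members (37.3 to 361) and 11.9 CPM in naive-like cells (0 to 117), against 2553 CPM in NK or ILC1-like cells. Their part in the result was not tested.

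Cytotoxic and effector genes gave 4 of 6 tested members higher and none lower (list median 0.91). Ctsw, a cathepsin of cytotoxic lymphocytes, ranged from 199 to 255 CPM in members and from 82.6 to 188 CPM in naive-like cells, which did not overlap (0.79 ± 0.10, adjusted p = 4.25e-07). Serpinb9, which protects the cell against granzyme B, rose by 1.83 ± 0.36, and Cst7, a cystatin of granule proteases, by 0.96 ± 0.22. The call of Serpinb9 was lost under the same 3 changes of the gate as that of Eomes below (0.82, 0.76 and 0.82), and with both libraries summed (0.37). Xcl1, a chemokine for cross-presenting dendritic cells, was called (2.35 ± 0.68, adjusted p = 0.0137), with members at 19.4 to 1510 CPM and naive-like cells at 0 to 593 CPM. The call was lost, and the direction turned, when Ly6c2 or Nkg7 was left out of the gate or 3 memory genes were asked for (-0.58, -0.50 and -0.46). Ccl5, another effector chemokine, was at 615 ± 391 and 348 ± 940 CPM and was not called (0.87 ± 0.59, adjusted p = 0.328). Its call depended on the setting. It was called higher by edgeR with mouse as a block (2.35, adjusted p = 0.000927) and after thinning (1.61, adjusted p = 0.00452), and by DESeq2 (2.70, adjusted p = 5.25e-07). It was also called under the 3 changes of the gate named for Eomes below (1.49 to 1.71). In the other settings planned beforehand it was not called. One naive-like arm was at 3317 CPM, and the naive-like median was 44.2 CPM.

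The granzymes and Ifng did not pass the filter on low counts, so that their levels are given without a test. Gzmb had a lowest, median and highest level of 0, 30.6 and 204 CPM in hCD2- members and 2 UMIs in all naive-like cells. Gzma reached 278 CPM in 1 mouse with a median of 8.62 CPM, and Gzmk was at 0 in 6 of 12 mice. Ifng, the effector cytokine, stood at 4.30, 22.7 and 494 CPM. Among transcription factors of the T-box family, Tbx21 ran from 26.6 over 48.5 to 73.7 CPM in members and from 0 over 3.13 to 26.2 CPM in naive-like cells. It did not pass the filter either.

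Transcription factor and survival genes gave 2 of 8 tested members higher and 2 lower. Eomes is among the 2 higher, but it passed the filter through members, so that its rise is a description. This T-box factor of memory CD8 and NK cells had a lowest, median and highest level of 60.3, 170 and 219 CPM in members. In naive-like cells it was at 0, 19.2 and 171 CPM (2.19 ± 0.33, 11 of 12 mice). Its call was lost with 3 memory genes asked for or Ly6c2 or Nkg7 left out of the gate (0.51, 0.44 and 0.50). Stat4, which transmits IL-12 signals, was higher by 0.69 ± 0.12. Ikzf2, a zinc-finger factor of early T cells, fell by 1.15 on the log2 scale (mean 242 CPM in members and 539 CPM in naive-like cells), and Mcl1, a survival factor, fell by 0.30.

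Naive T cell genes gave 11 of 15 members lower and none higher, with a list median of -0.68. Lef1, a TCF-family factor that sustains naive cells, ranged from 792 to 1543 CPM in members and from 1709 to 2803 CPM in naive-like cells, with no overlap (-0.89 ± 0.10, 12 of 12 mice, adjusted p = 5.48e-08). Igfbp4 was at 54.3 ± 23.0 and 177 ± 46.7 CPM, and Sox4, a factor of thymocytes and recent emigrants, at 18.2 ± 7.89 and 85.2 ± 37.7 CPM (SD, n = 12 each; log2 differences -1.70 and -2.06). Tcf7 fell by 0.42, Ccr7, the homing receptor of lymph nodes, fell by 0.71 and Foxp1 fell by 0.58. Conventional CD4 T cell markers (Cd4, Zbtb7b and Cd40lg) moved with the comparison: they summed to a median of 2.66 CPM in members (0 to 25.7) and 51.7 CPM in naive-like cells (0 to 117). The 4 plasmacytoid dendritic cell markers, of which Ccr9 is itself a result below, summed to a median of 104 CPM in members (66.5 to 168) and 186 CPM in naive-like cells (138 to 513). The 5 stromal or endothelial markers, with Col1a2 and Pdpn at 0 in both, were at 146 CPM (93.9 to 197) and 270.2 CPM (169 to 448). Their part in the result was not tested.

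**Figure D3:**
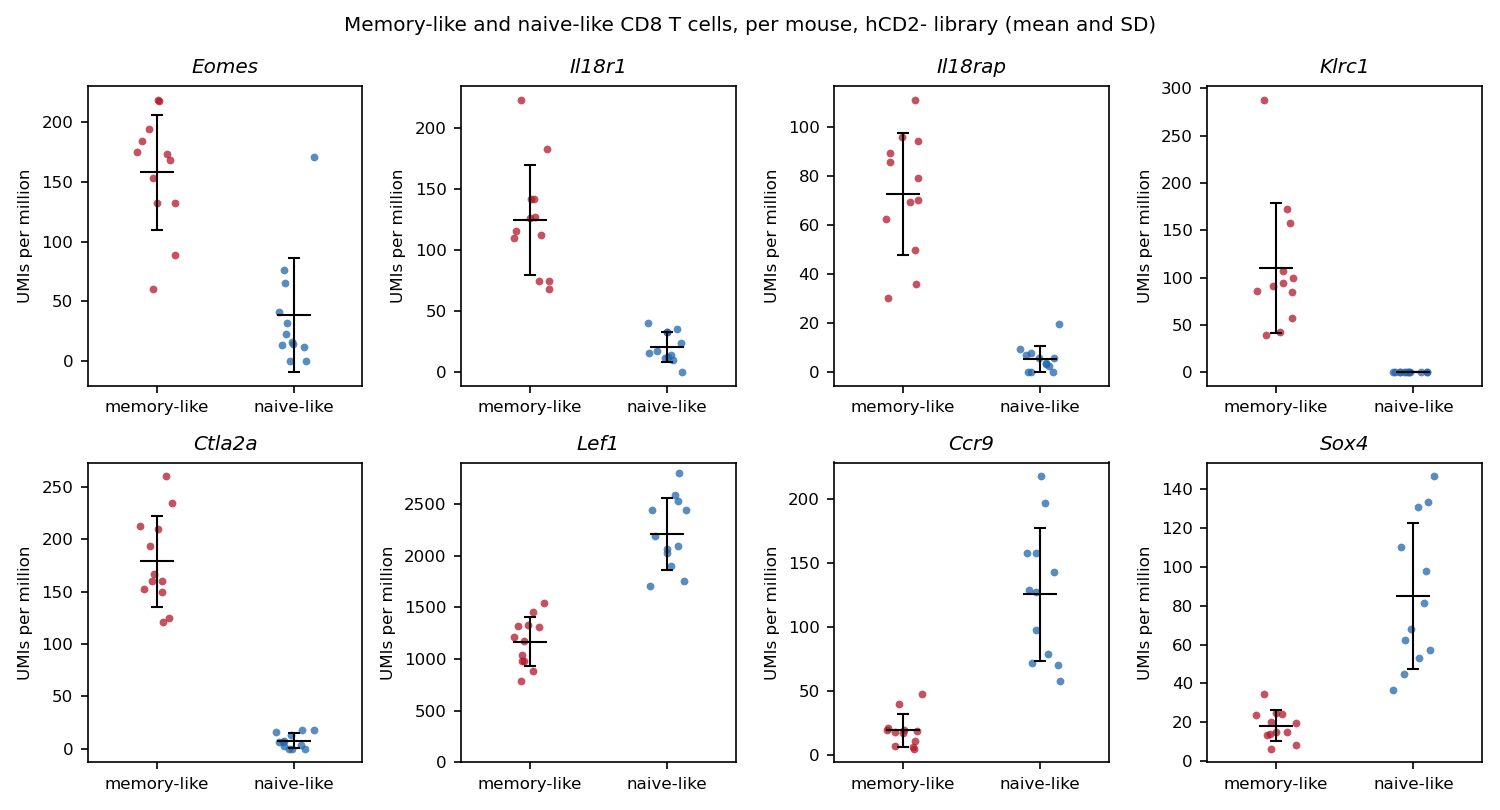
Levels in CPM (y axis) of 8 genes in each mouse of the hCD2- library, in memory-like and naive-like CD8 T cells (12 points each; mean and SD). Klrc1 was at 0 in all naive-like arms, and Lef1 was lower in members in 12 of 12 mice.

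Adhesion, homing and residency genes split, with 5 of 10 tested members higher and 4 lower. Itgb1, the beta-1 integrin chain, rose by 1.22 ± 0.17. Cd44, the hyaluronan receptor that marks memory-phenotype cells, rose by 1.20 ± 0.27 (128 ± 34.5 against 64.6 ± 59.6 CPM, higher in 10 of 12 mice). Cd44 is among the 5 higher, but it passed the filter through members, so that its rise is a description. Ccr9, the receptor for the small intestinal chemokine, had a lowest, median and highest level of 5.14, 18.8 and 48.1 CPM in members and 58.4, 128 and 218 CPM in naive-like cells. It was lower by 2.52 on the log2 scale without overlap (12 of 12 mice), a description since it passed the filter through naive-like arms. Itgae, the integrin of epithelial retention, fell by 1.60, Itgb7, its beta chain, fell by 0.60, and Itga4 fell by 0.68. Against naive-like cells without any memory gene (arms of at least 2 cells) Itgae was at 0.39 and Itgb7 at 0.32, both turned in direction and not called, and in the hCD2+ library Itgb7 was at 0.18. Cxcr3, a receptor for inflammatory chemokines, did not pass the filter and stood at 16.6, 36.0 and 56.6 CPM in members, against 0, 1.55 and 13.5 CPM.

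Other genes were named for the size of their difference. Ctla2a, a cysteine protease inhibitor, was at 179 ± 43.3 against 7.68 ± 6.96 CPM (SD, n = 12; 4.56 ± 0.25, 12 of 12 mice), the largest difference among the tested and named genes detected in both groups. It passed the filter through members, so that its rise is a description. Slamf7, a receptor of cytotoxic cells, rose by 2.94 ± 0.31, Tshz3 by 2.93 ± 0.39, Plek by 2.63 ± 0.26 and Serpinb6b by 2.19 ± 0.36. Serpinb6b was not called with both libraries summed (0.42, adjusted p = 0.654), nor against naive-like cells without any memory gene (1.02, adjusted p = 0.146). Trat1, an adaptor of the T cell receptor complex, fell by 2.15 on the log2 scale, Igf1r fell by 1.84, and Ifngr2, the second chain of the interferon-gamma receptor, fell by 1.78. Tgfbr3 was at -1.61, Mtss1 at -1.58 and Sgms1 at -1.47.

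T cell receptor signalling genes gave 1 of 15 members higher and 4 lower, with a list median of -0.11. Cd247, the zeta chain, fell by 0.62 and Themis fell by 0.31, while Cd6 rose by 0.35. Among checkpoint genes Cd160 rose by 1.07 ± 0.23 and Tox fell by 1.05, of 4 tested. Of 15 cell division genes 3 were tested, and all 3 were called higher, each call being lost under at least 1 change of the gate: Mki67 stood at 198 ± 156 against 54.3 ± 111 CPM (1.61 ± 0.58, 9 of 12 mice, adjusted p = 0.0453), Top2a was higher by 1.41 ± 0.49 and Mcm6 by 0.53 ± 0.12. Mki67 and Top2a were not called under the changes of the gate named for Eomes, nor was Mki67 by DESeq2 (1.90, adjusted p = 0.114). With Samd3 left out of the gate, Mki67 (1.38, adjusted p = 0.109) and Mcm6 (0.32, adjusted p = 0.104) were not called, and Cd160 was not called under the changes named for Eomes (0.52 to 0.59). Under each of the 3 changes named for Eomes Il27ra, Itga4, Themis, Mcl1 and Cd6 were not called either, and Serpinb6b and Tcf7 were not when 3 memory genes were asked for or Nkg7 was left out. Il7r was called under all 3, higher in members by 0.44 to 0.50. Ly6e, the single Ly6 family member tested, rose by 0.66 ± 0.14. None of 9 immediate early genes was called (list median 0.22). Cd8a, at 242 ± 32.6 and 277 ± 43.8 CPM, was not called (adjusted p = 0.159; against naive-like cells without any memory gene it was called higher, at 1.26, adjusted p = 0.0167), nor was tdTomato, at 329 ± 41.8 and 395 ± 94.1 CPM (adjusted p = 0.157).

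**Figure D4:**
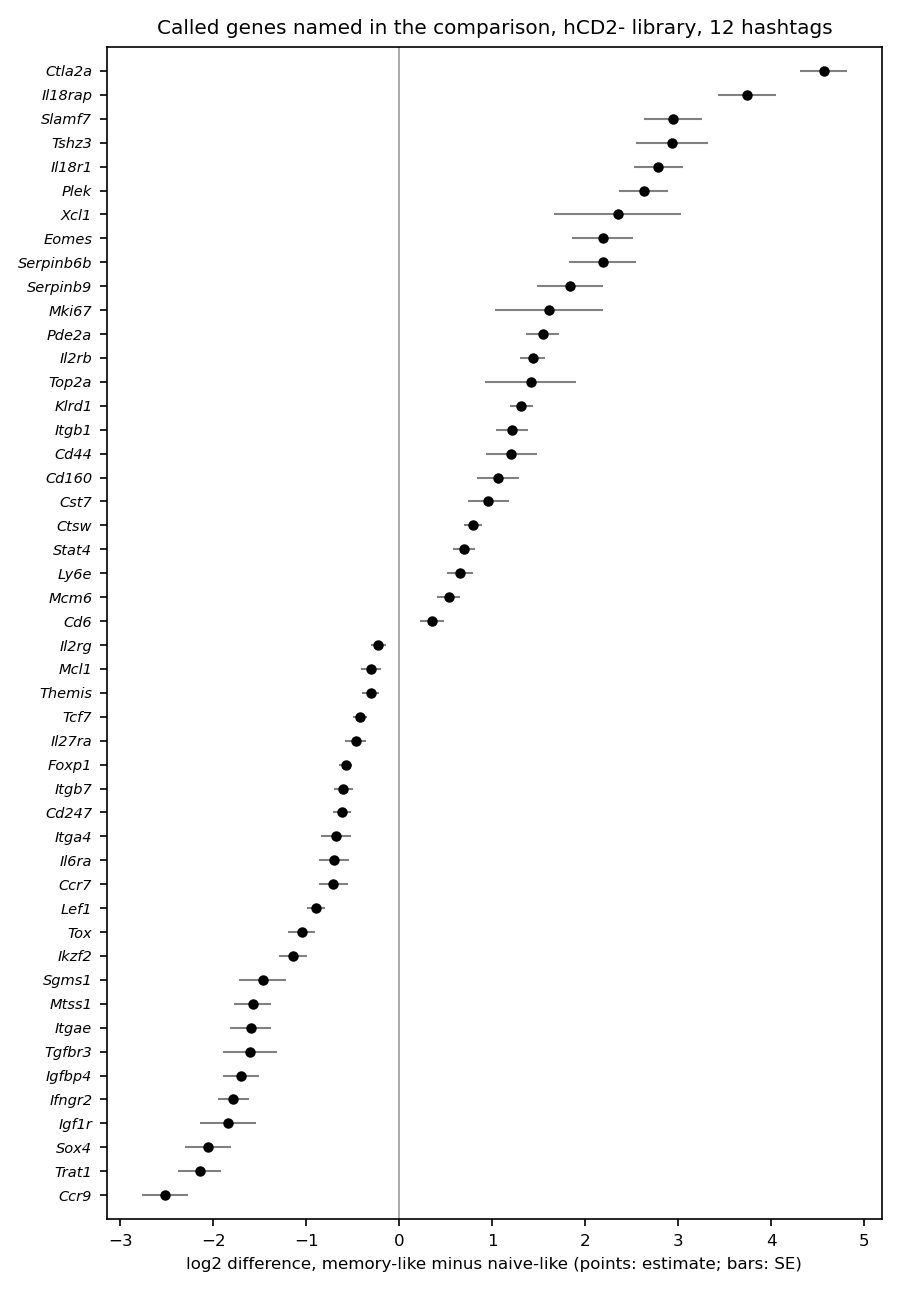
Log2 difference between memory-like and naive-like CD8 T cells (x axis; point and SE) for the called genes named by rule in the hCD2- library, 12 mice per arm, without Klrc1, which had no count in naive-like cells. Ctla2a is the highest at 4.56 and Ccr9 the lowest at -2.52.

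In the hCD2+ library, where arms of at least 3 cells left 7 mice, 8 of 2481 genes tested were called (0.322%). Of the 718 genes called in hCD2- and tested there, 640 (89.1%) had the same sign. The share of equal signs over all tested genes was not taken, so that 89.1% has nothing to be set against. The same gate chose the arms in both libraries, and genes that vary with the gate genes are favoured in both. Klrd1 was higher by 1.47 ± 0.28 (edgeR adjusted p = 0.0156), and Ccl5 by 3.20 ± 0.54 (adjusted p = 0.00760). Il2rb, at 0.83 ± 0.26, and Lef1, at -0.55 ± 0.27, kept their sign and were not called. The difference between libraries of the memory-like to naive-like difference was tested as an interaction, and 0 of 5535 genes (0%) were called by edgeR, with 444 at an unadjusted p under 0.05 and a smallest adjusted p of 0.0837.

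Against NK or ILC1-like cells, the other class with cytotoxic transcripts (188 hCD2- cells without Cd3d and Cd8b1 and with at least 2 of Ncr1, Klrb1c and Klre1), members were higher in T cell receptor genes and lower in effector and immediate early genes. Of 5932 genes tested, 2284 were called (38.5%), 1032 higher (17.4%) and 1252 lower (21.1%) in members. Genes of the gates of both classes were given no test. Cd3 and Cd8b1 UMIs chose the members, and the absence of Cd3d and Cd8b1 chose the other class. The higher T cell receptor signalling genes, Cd8a among them, therefore describe this choice. T cell receptor signalling genes gave 14 of 15 higher and 1, Lcp2, lower (list median 1.52, all tested -0.01). Trac, the alpha constant chain, stood at 628 ± 102 CPM in members and 6.44 ± 5.01 CPM in NK or ILC1-like cells (SD, n = 12; 6.63 ± 0.19, 12 of 12 mice). Themis and Cd5, which tune receptor signals, were higher by 6.92 ± 0.34 and 7.24 ± 0.26. Naive T cell genes gave 9 of 12 higher and none lower, with Lef1 at 1170 ± 235 against 101 ± 53.0 CPM.

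Cytotoxic and effector genes gave 10 of 12 tested members lower (list median -1.71). Of the 12, Ccl3, Ccl4, Fasl, Gzma, Ifng and Tnfsf10 had not passed the filter against naive-like cells, so that this count is a description. The NK or ILC1-like class was chosen by NK receptor genes, and some genes of the NK receptor list passed the filter through this class only, so that their lower values in members describe the choice. Tyrobp, the signalling adaptor of NK receptors and one of these genes, had a lowest, median and highest level of 2.77, 14.5 and 107 CPM in members. In NK or ILC1-like cells it was at 687, 787 and 970 CPM (fell by 4.78 on the log2 scale). Klrk1, which encodes NKG2D, fell by 3.85 and Klrd1 fell by 1.60. Il2rb stood at 182 ± 31.4 CPM in members and 623 ± 85.5 CPM in NK or ILC1-like cells, with no overlap, which held for 7.13% of genes tested (fell by 1.77), and Ccl5 at 615 ± 391 and 2316 ± 651 CPM (fell by 1.90). Members lay between naive-like and NK or ILC1-like cells in the mean level of Il2rb, Eomes and Klrd1. Eomes was at 158 ± 48.1 and 321 ± 85.6 CPM (fell by 1.01) and Tbx21 at 47.9 ± 13.2 and 231 ± 69.8 CPM (fell by 2.25). Pde2a was not called, at 162 ± 40.3 and 165 ± 31.4 CPM (-0.01 ± 0.13, adjusted p = 0.971).

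All 10 immediate early genes tested fell (list median -2.28), among them Nr4a1, which ran from 25.8 to 171 CPM in members and from 397 to 927 CPM in NK or ILC1-like cells. Adhesion, homing and residency genes gave 1 higher and 7 lower of 12, with Itga4 at 214 ± 59.7 and 682 ± 195 CPM, and Ccr2, a receptor for inflammatory chemokines, at -3.04 ± 0.20 on the log2 scale. Il6ra was higher by 5.89 ± 0.32 and Il21r, the IL-21 receptor, by 0.88 ± 0.21. Among the largest differences, Cd8a had 0 UMIs in NK or ILC1-like cells, and Fam169b, Rapgef4 and Tdrp were also higher. Klra4, Lrmda, Mef2c, Klri2 and Car2 had log2 differences of -6.87 to -5.88. Dendritic cell markers were lower in members too, at a median sum of 351 CPM against 1186 CPM, and their part was not tested.

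Between the libraries, members were compared with each other in 12 hCD2- arms and 9 hCD2+ arms, a contrast the gate did not use. Of 6153 genes tested, 74 were called (1.20%), 44 higher (0.715%) and 30 lower (0.488%) in hCD2-. The genes that chose the members were not among them, but the same gate on these genes chose both arms. Their similar levels are therefore in part fixed by the choice and are given as a description. Ly6c2 stood at 487 ± 96.6 and 462 ± 213 CPM (0.04 ± 0.19). Nkg7 was at 473 ± 109 and 457 ± 81.6 CPM (0.01 ± 0.12), and Samd3 at 115 ± 29.9 and 112 ± 52.5 CPM (0.04 ± 0.21). Pde2a, which the gate did not read, was at 162 ± 40.3 and 148 ± 44.8 CPM (0.15 ± 0.17, edgeR adjusted p = 0.774). The missed threshold does not show that its levels are equal. Eomes was at 158 ± 48.1 and 91.2 ± 38.5 CPM (0.83 ± 0.22, higher in 7 of 9 mice, adjusted p = 0.0569; called by DESeq2, at adjusted p = 0.0253).

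Klrc1 and Klrc2, neighbouring NK lectin genes, were both higher in hCD2-, and the other 3 tested genes of the NK list were not called. Both passed the filter on low counts through hCD2- arms, so that their rises are descriptions. Klrc1 had a lowest, median and highest level of 39.9, 92.8 and 288 CPM in hCD2- and 0, 4.86 and 63.7 CPM in hCD2+ (1.92 ± 0.46, 8 of 9 mice). Its call was lost with mouse as a block (1.998) and with arms of at least 3 or at least 10 cells. Klrc2 was at 72.7 ± 38.3 and 14.6 ± 19.0 CPM (1.96 ± 0.48), and its call was lost with at least 10 cells. Reads of these near-identical neighbours can be split between them in counting, so that the share of each is uncertain. tdTomato was at 329 ± 41.8 and 229 ± 37.3 CPM (0.50 ± 0.10, higher in 9 of 9 mice, adjusted p = 0.00514), and was not called after thinning to 3000 UMIs (0.42, adjusted p = 0.368).

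Of the remaining calls, cytosolic ribosomal protein genes made up 11 of the 44 that were higher and none that were lower (81 tested, list median -0.03), a group named after its values had been seen. Eno1, a glycolytic enzyme, stood at 125 to 179 CPM in hCD2- and 49.1 to 98.7 CPM in hCD2+, with no overlap (1.12 ± 0.12, adjusted p = 1.63e-07), as held for 0.390% of genes tested. Hmga1, Polr2l, Pes1, Nolc1, Hyou1, Atp5k and Bola2 were also higher, by 0.75 to 2.23. Hmga1 and Polr2l, with hCD2+ medians of 9.20 and 7.48 CPM, passed the filter through hCD2- arms, so that their rises are descriptions. Pes1, Hyou1, Atp5k and Bola2 had hCD2+ arms down to 5.48, 0, 15.0 and 11.0 CPM, and this may hold for them too. Wdr89 ran from 53.2 to 111 CPM in hCD2- and from 129 to 194 CPM in hCD2+ (-1.15 ± 0.12, adjusted p = 1.63e-07), and Mfhas1, Fchsd2, Rnaset2a, Rnaset2b, Zfand6, Cnot6, Lrch1, Tspo and Zfp36l1 were lower as well. With mouse as a block, Atp5k, Bola2, Hyou1, Pes1, Fchsd2, Lrch1, Mfhas1 and Tspo were no longer called (adjusted p from 0.0606 to 0.187). Nolc1 and Zfp36l1 were not called with arms of at least 3 cells (adjusted p = 0.0679 and 0.350) or at least 10 cells (0.237 and 0.181), nor was Cnot6 with at least 10 cells (0.118). Function lists outside the NK list had no call. ILC3 or LTi markers moved with the libraries: they summed to a median of 76.6 CPM in hCD2- members (44.6 to 226) and 132 CPM in hCD2+ members (89.8 to 1222), against 419 and 2247 CPM in droplets. Neutrophil markers were at a median of 0 in both, and reached 229 CPM in 1 hCD2+ arm. The part of both in these results was not tested.

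**Figure D5:**
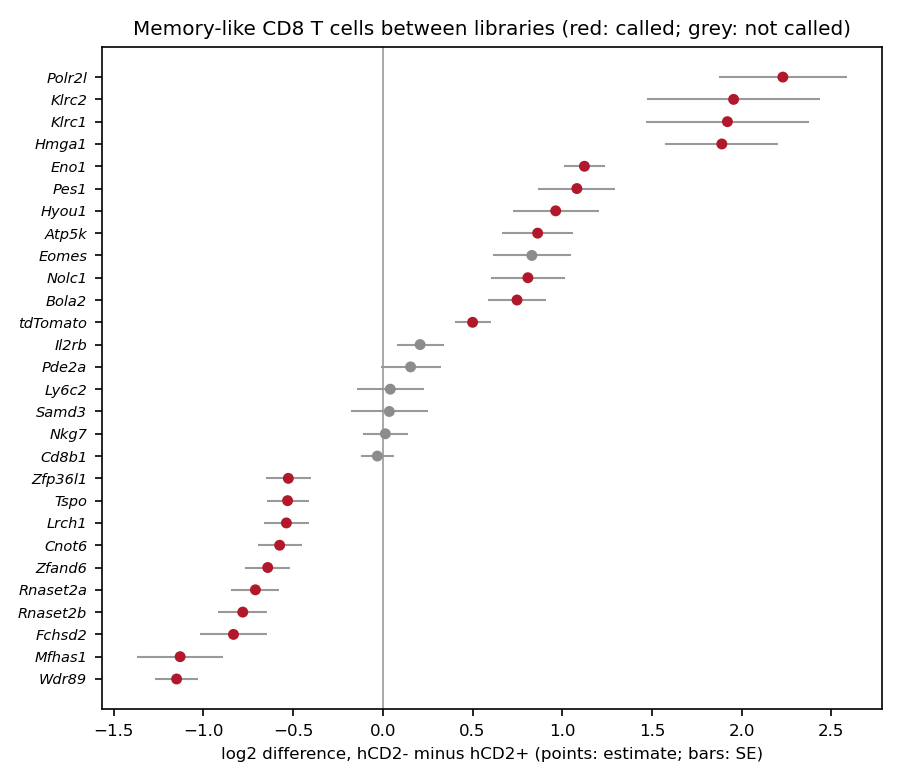
Log2 difference in memory-like CD8 T cells, hCD2- minus hCD2+ (x axis; point and SE), for the named genes of 12 and 9 arms. Called genes are red. Ly6c2, Nkg7, Samd3, Pde2a, Eomes, Il2rb and Cd8b1 are grey and not called, and of these Ly6c2, Nkg7, Samd3 and Cd8b1 chose the members in both libraries.

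T cell receptor transcripts showed no single dominant variable segment. A Trbv transcript was found in 60.0% of 513 members, and the 259 cells with a single Trbv segment held 22 different segments. The most frequent, Trbv12-2, was in 12.0% of those 259 cells, against 12.6% of 111 naive-like cells. These are cells and not mice, and the shares are a description. In the comparison with naive-like cells, 0 of 13 genes of gamma delta and innate-like T cells passed the filter. Trdc, the delta constant chain, had a median of 3.62 CPM and reached 70.3 CPM in 1 mouse. Cd4 stood at a median of 1.17 CPM in hCD2- members.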

How the data were processed

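Per the submitters' processing notes, Cell Ranger 8.0.1 was used with mm10. The authors deposited UMI counts per gene and barcode, without normalization, and a hashtag assignment per called cell. CPM values are depth-scaled sums of these counts.

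The gates were applied per cell and counts were summed per mouse and class (at least 5 cells). Sums were fitted with edgeR quasi-likelihood (TMM, filterByExpr) in R, and a gene counted as called when its p, adjusted by Benjamini and Hochberg over every tested gene, was under 0.05. Doublets were reduced by leaving out hashtag multiplets and by the Cd74 gate. Doublets within a single hashtag whose partner is low in Cd74 would remain. On simulated counts with 100 genes changed 2-fold the test recovered 97%, 93% and 87% in the comparisons with naive-like cells, NK or ILC1-like cells and between libraries, among 5410, 5945 and 6153 genes. Shares were compared by permutation (100000 draws).

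Members, lists and the rule for named genes were chosen with earlier results of these data known. The rule named 2 to 4 genes of each function list, up to 10 called genes in each direction by size of change, and fixed marker genes; some genes it named are not reported here. Classes of one hashtag within a library come from the same animal; across libraries this was assumed. As a check, deviations from the group means correlated across 1945 genes (not independent replicates) by 0.0706 on average within mice and -0.00681 between mice. Mouse as a block is an alternative. Intervals and the floor of 3 counts cover counting error only.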

Additional observations from a re-analysis of the deposited data

Results flagged for a closer look

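In the 9 hCD2+ arms of members, 42 named genes were checked for an arm far from the others, and chance flags about 5% of groups. Such an arm was found for 5 genes. Bola2 was at 11.0 CPM in mouse 1 and Cd8a at 456.7 CPM in mouse 8. Fchsd2 was at 701 CPM in mouse 6. Pes1 and Rnaset2a were at 66.0 and 215 CPM in mouse 11.

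Cells without a single hashtag entered no comparison, and 41 of the 1865 such cells passed every other gate of the memory-like class. Hashtag multiplets were 17 of them in hCD2- and 19 in hCD2+, 2 were Blank and 3 Unassigned.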

How the results depend on the processing

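The difference in the share of kept cells kept its direction and its side of the threshold under all settings run, with 2.60 percentage points after thinning and 3.84 with 3 memory genes (signs flipped within mice, thinning, 5000 UMIs, Cd74 under 500 CPM, 3 memory genes), and the share of CD8 T cells stayed past no threshold. Members against naive-like cells gave 1092 calls. The count moved to 196 after thinning to 3000 UMIs (fewer genes tested; 175 shared), 608 with 3 memory genes, and 571, 612 and 676 with Ly6c2, Nkg7 or Samd3 left out of the gate. Settings chosen after seeing the data gave 518 (naive-like without any memory gene, 2 cells per arm, since the planned version could not be fitted) and 8 (hCD2+ library). NK or ILC1-like comparisons moved from 2284 to 3951 without the filter and 487 after thinning. Between libraries 74 became 115 with DESeq2, 187 without the filter and 21 after thinning (added). With mouse as a block the counts were 938, 2157 and 52, and no count moved by over 1.5 times. Where not stated, the cause was not tested.

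Some values changed sign. Against naive-like cells without any memory gene (added), Cd8a was 1.26 (called), Il7r -0.065, Itgae 0.39, Itgb7 0.32 and Themis 0.024 on the log2 scale. In the hCD2+ library (added), Il2rg was 0.066, Itgb7 0.18 and tdTomato 0.029. Xcl1 was -0.46 with 3 memory genes, -0.58 without Ly6c2 and -0.50 without Nkg7. Against NK or ILC1-like cells, Il7r was -0.25 with both libraries summed, and Pde2a, within error of 0, was 0.0072 with DESeq2, 0.0098 with RLE factors, 0.093 without the filter, 0.023 with 10 cells, 0.083 with both libraries and 0.0011 after thinning. Between libraries, uncalled values near 0 turned: Cd8b1 0.036 without the filter and 0.033 with 3 cells, Il2rb -0.20, Ly6c2 -0.11 and Nkg7 -0.021 after thinning (added), Nkg7 -0.042 with 10 cells, Samd3 -0.046 with the block and -0.0050 with 3 cells.

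Depth limits the untested genes, and the 2 to 33 members per hCD2+ mouse limit every hCD2+ value.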

Other observations

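Several genes of the function lists were too low for the filter in the comparison with naive-like cells, and their levels are given without a test. They were chosen after their values had been seen. Ccr2, a receptor for inflammatory chemokines, had 372 UMIs in members and 2 in naive-like cells. Cxcr6, a receptor of tissue-resident lymphocytes, had 302 and 30 UMIs, and Fasl, the death ligand, 139 and 6. Klrk1 had 477 UMIs in members and 3 in naive-like cells, at 11.1 to 166 CPM in the members' arms. Pdcd1 and Lag3, which encode checkpoint receptors, had 7 and 14 UMIs in members and 8 and 10 in naive-like cells. The arms of members held 8755595 UMIs of all genes and those of naive-like cells 3350299.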
